A study of Mus musculus with 2 samples.

Results

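Sterol-regulated cholesterol synthesis was followed in single liver cells through 7 genes: Srebf2, which carries miR-33 in one of its introns, and 6 targets of the transcription factor it encodes, namely Hmgcs1, Sqle, Idi1, Fdps, Cyp51 and Insig1. They were taken by symbol as 7 of the 32285 genes listed in each count table. Mouse livers had been dissociated and profiled by droplet-based single-cell RNA-seq as 2 libraries. The WT library came from wild-type littermates. The HKO library came from mice with loxP-flanked miR-33 and Cre recombinase driven by the albumin promoter, a promoter used to direct deletion to hepatocytes. Whether it also acted in cholangiocytes, the bile duct cells, cannot be seen here. In both groups the mice were male, were switched at 8 weeks of age to CD-HFD, a choline-deficient high-fat diet that induces steatohepatitis, and stayed on it for 6 months. Each library pooled 3 livers, with hepatocytes and sorted live nonparenchymal cells mixed in equal numbers. The comparison addressed how liver cells differ when hepatocytes lack miR-33. With 1 library per genotype there was no spread between animals to compare a difference with, so no test was made. Intervals in parentheses are exact 95% intervals and cover counting error only.

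SREBP2, the protein encoded by Srebf2, is held in the endoplasmic reticulum with SCAP while sterols are plentiful, and INSIG proteins retain that complex there. When sterols fall, SREBP2 is cut and its released part enters the nucleus and raises the genes of cholesterol synthesis and uptake, Insig1 among them. The liver is a main site of this pathway, and miR-33, made from an intron of Srebf2, represses genes of cholesterol export and fatty acid oxidation.

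The mature miR-33-5p is shown because it is the molecule removed in HKO hepatocytes, with the seed (bases 2 to 8) in capitals. It is from RefSeq on GRCm38.p6, chr15:82198127-82198147, plus strand.
miR-33-5p: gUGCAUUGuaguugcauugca
Its gene, Mir33, spans 82198122 to 82198190 on chromosome 15 within intron 16 of the 19-exon transcript Srebf2-201 (GENCODE vM21). The count tables had no row for Mir33, and its loss is therefore not visible here. The complement of the seed, CAATGCA, occurred in no annotated 3′UTR of the 7 members, against 8.22% of the 6886 genes analysed in hepatocyte-like barcodes that had such a 3′UTR. Absence of these letters says nothing about other kinds of sites.

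Promoter windows, 250 bases before to 50 after the RefSeq start, were on hand for 5 members and are shown for those with a match to a sterol regulatory element, the sequence bound by SREBPs. Capitals mark TCACNCCA, a shortened form of the element, and CCAAT, the box of the cofactor NF-Y, which reads ATTGG on the other strand. Each stretch ends before the first annotated start and is on the plus strand of GRCm38.p6.
Hmgcs1, chr13:119690101-119690350: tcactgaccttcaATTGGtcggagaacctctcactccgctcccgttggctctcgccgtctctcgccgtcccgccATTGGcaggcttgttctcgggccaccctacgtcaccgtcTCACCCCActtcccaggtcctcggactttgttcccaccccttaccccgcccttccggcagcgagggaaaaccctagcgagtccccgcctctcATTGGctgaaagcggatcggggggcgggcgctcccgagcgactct
Srebf2, chr15:82147019-82147180: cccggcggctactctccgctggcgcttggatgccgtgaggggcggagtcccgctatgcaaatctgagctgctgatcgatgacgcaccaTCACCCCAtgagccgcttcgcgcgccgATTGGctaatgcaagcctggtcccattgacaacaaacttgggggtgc
The full element TCACNCCAC, which contains the shortened form, was present on either strand in 1.24% of all 32851 windows and among the members only in Hmgcs1, at position -137 from the start. The shortened form was present in 4.36% of windows, and in Srebf2 it lay at position -162. CCAAT was present in 37.4% of windows and in all 5 members with a window, which also include Idi1, Cyp51 and Insig1. A match is a description of the letters, not of binding.

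There were 130451427 UMIs over 30078 barcodes for WT and 52563185 UMIs over 20000 barcodes for HKO. A UMI marks 1 captured RNA molecule, and CPM below is UMIs of a gene per 1000000 UMIs of the class. Most barcodes lay at the depth of droplets that hold free RNA, 19966 in WT and 10259 in HKO. Hepatocyte-like barcodes, those without markers of other cells and at least 2 times as deep as the commonest depth of their library, numbered 1835 in WT and 3365 in HKO, with median depths of 20451 and 4481 UMIs. Hepatocyte markers did not separate these from free RNA, so depth did. Cluster makeup also differed between the libraries, and 1 cluster held 260 hepatocyte-like barcodes from WT and 3 from HKO, while others held 98 and 819 or 4 and 293.

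Srebf2 (ENSMUSG00000022463, chromosome 15, 82147181 to 82205379) was lower in the HKO than in the WT library in hepatocyte-like barcodes. It had 1168 UMIs or 24.7 CPM (23.3 to 26.2) in WT, against 480 UMIs or 19.4 CPM (17.7 to 21.2) in HKO, for a ratio of 0.786 (0.705 to 0.875). The levels lay further apart than counting error. Of all genes analysed in this class, 13.3% had a lower ratio, so Srebf2 was not among the genes that differed most.

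The 6 targets did not move together. In hepatocyte-like barcodes Fdps and Insig1 were lower in HKO, Sqle and Cyp51 were higher, Hmgcs1 was slightly lower and Idi1 was nearly level. Their median log2 ratio of HKO over WT was -0.040, beside a median of -0.021 over the 7073 genes with a mean of at least 10 CPM. Genes at least 1.5-fold lower in HKO made up 4.35% of those analysed and genes at least 1.5-fold higher 2.35%. None of the 6 members above 10 CPM reached either fold, and Sqle, whose mean was under 10 CPM, was 1.87-fold higher.

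Hmgcs1, which makes HMG-CoA at the head of the pathway, had 4550 UMIs or 96.2 CPM (93.4 to 99.04) in WT, against 2184 UMIs or 88.3 CPM (84.7 to 92.1) in HKO. The ratio of 0.918 (0.872 to 0.967) was close to 1 although its interval lay below it. Idi1, which isomerises the isoprene unit, had 832 UMIs or 17.6 CPM (16.4 to 18.8) in WT, against 448 UMIs or 18.1 CPM (16.5 to 19.9) in HKO. Its intervals overlapped, with a ratio of 1.03 (0.916 to 1.16).

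Fdps, which joins isoprene units to farnesyl diphosphate, had 1434 UMIs or 30.3 CPM (28.8 to 31.9) in WT, against 525 UMIs or 21.2 CPM (19.5 to 23.1) in HKO. The ratio was 0.7004 (0.633 to 0.775), and 5.95% of genes analysed had a lower one. Sqle, which oxidises squalene and is a rate-limiting step of the later pathway, had only 146 UMIs in WT and 143 in HKO. These were 3.09 CPM (2.61 to 3.63) and 5.78 CPM (4.87 to 6.81), a ratio of 1.87 (1.48 to 2.38). Cyp51, the lanosterol demethylase, had 929 UMIs or 19.6 CPM (18.4 to 20.9) in WT, against 572 UMIs or 23.1 CPM (21.3 to 25.1) in HKO, for a ratio of 1.18 (1.06 to 1.31). Sqle and Cyp51 were thus the members whose whole interval lay above 1.

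Insig1 encodes a brake on SREBP processing and is itself an SREBP target, raised when sterols fall. It had 4673 UMIs or 98.8 CPM (95.99 to 102) in WT, against 1760 UMIs or 71.2 CPM (67.9 to 74.6) in HKO. Its ratio was 0.721 (0.682 to 0.761), and 7.15% of genes had a lower one.

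**Figure D1:**
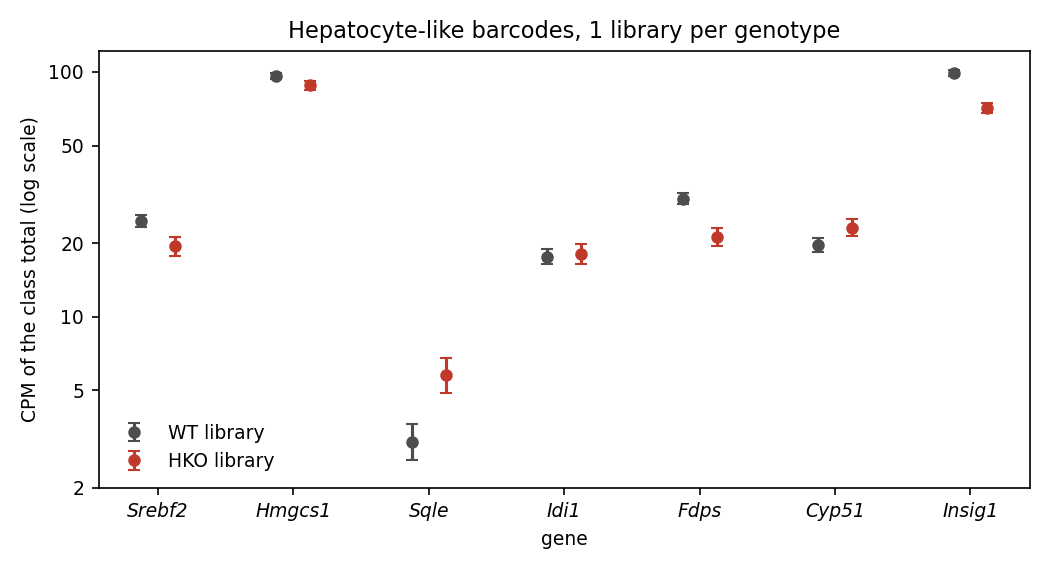
CPM of the 7 members in hepatocyte-like barcodes on a log axis, 1 point per library, with bars for exact 95% Poisson intervals. The WT points lie above the HKO points for Srebf2, Fdps and Insig1, and the HKO point lies above for Sqle, 5.78 against 3.09 CPM.

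Because the libraries differed in depth, the members were also compared in barcodes of like depth. Srebf2 and Insig1 were lower in HKO at each depth, and Sqle was higher. In barcodes with 5000 to 10000, 10000 to 20000 and at least 20000 UMIs, Sqle had ratios of 3.20 (1.09 to 12.8), 3.03 (1.62 to 6.06) and 2.72 (1.93 to 3.79). The first of these rested on 4 WT and 22 HKO UMIs. Insig1 had ratios of 0.741, 0.745 and 0.778, the highest of the 3 with an interval of 0.702 to 0.861. Srebf2 had ratios of 0.839 (0.595 to 1.19), 0.776 (0.633 to 0.952) and 0.810 (0.657 to 0.989), so its difference exceeded counting error at the upper 2 depths.

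The direction of Hmgcs1 depended on depth. Its ratio was 0.747 (0.638 to 0.875) at 5000 to 10000 UMIs, 1.26 (1.12 to 1.42) at 10000 to 20000 and 1.19 (1.10 to 1.30) at 20000 or more. From the lowest to the highest of these depths its level was 94.0, 66.8 and 102 CPM in WT and 70.2, 84.04 and 122 CPM in HKO. The 1791 HKO barcodes under 5000 UMIs, a depth at which WT had none, gave 78.9 CPM. Idi1, close to 1 in the whole class, had ratios of 1.31, 1.36 and 1.47, the last with an interval of 1.22 to 1.75. Fdps turned with depth as well, with ratios of 0.734 (0.524 to 1.03), 1.15 (0.922 to 1.45) and 0.817 (0.684 to 0.970). Cyp51 stayed above 1 at each depth, from 1.15 to 1.49.

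**Figure D2:**
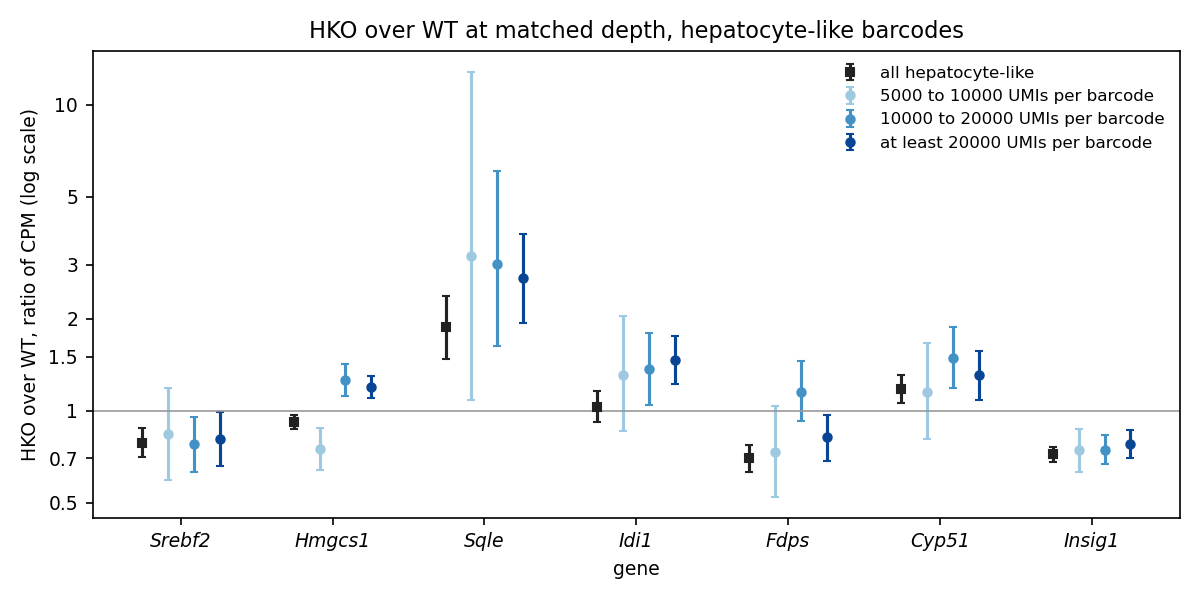
Ratio of CPM in HKO over WT on a log axis, for all hepatocyte-like barcodes (squares) and within 3 ranges of UMIs per barcode (circles), with exact conditional 95% intervals. Sqle lies above 1 and Insig1 below 1 in every range, while Hmgcs1 moves from 0.747 to 1.26.

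Barcodes of free RNA depth gave a second reading of each library, although not an independent one, since hepatocytes supply most of that RNA. Sqle had a ratio of 2.15 (1.502 to 3.04) there, Insig1 0.624 (0.571 to 0.680) and Fdps 0.669 (0.571 to 0.781). These had the directions seen in hepatocyte-like barcodes. Srebf2 did not, at 20.6 CPM in WT against 20.4 CPM in HKO and a ratio of 0.989 (0.849 to 1.15). Idi1 and Cyp51 were also unlike, with ratios below 1 in free RNA, 0.820 (0.697 to 0.959) and 0.898 (0.775 to 1.04). Hmgcs1 was higher in free RNA than in hepatocyte-like barcodes, at 152 CPM in WT and 104 CPM in HKO, and its ratio between the libraries was 0.685 (0.642 to 0.731).

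The clearest pattern was along the liver lobule, and it was present in both libraries. Hepatocyte-like barcodes were ranked within each library by the share of pericentral among all zone landmark UMIs and split into 3 groups of near equal size, periportal, middle and pericentral, running from the portal side, where blood enters, to the central vein. No member was a landmark. The landmarks Glul and Cyp2e1 were higher in the pericentral group, by construction of the ranking. With Glul, Oat and Cyp2f2 left out of the ranking, Glul still had a periportal over pericentral ratio of 0.0580 in WT and 0.0188 in HKO.

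All 6 targets were lower in the periportal group in WT, with a median log2 ratio of -1.23 against -0.077 over 7094 genes. In HKO the median was -0.91 against -0.12 over 7053 genes, and 5 of 6 were lower. At least 1.5-fold higher levels in the pericentral group were found for 5 of the 6 targets in WT, where 12% of genes reached that fold, and for 4 of 6 in HKO, where 10.4% did. Both counts include Sqle, whose mean was under the 10 CPM that the genes behind these shares had passed. In the opposite direction no target reached 1.5-fold, with 9.28% of genes doing so in WT and 4.03% in HKO.

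Hmgcs1 went in WT from 45.2 CPM (42.0 to 48.7) in the periportal group to 91.7 CPM in the middle and 149 CPM (143 to 155) in the pericentral group. In HKO it had 54.4 CPM (50.1 to 59.0), 74.9 CPM and 145 CPM (137 to 154). The periportal over pericentral ratio was 0.303 (0.279 to 0.330) in WT and 0.376 (0.340 to 0.416) in HKO. Only 0.902% and 1.66% of genes had a lower one.

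Fdps had 14.2 CPM in the periportal, 37.8 CPM in the middle and 39.1 CPM in the pericentral group of WT, and 12.3, 17.6 and 36.2 CPM in HKO. Its ratios were 0.363 (0.311 to 0.424) and 0.341 (0.275 to 0.421). Between the libraries Fdps did not differ beyond counting error in the outer groups, and its ratio of HKO over WT in the middle group was 0.467 (0.376 to 0.574). Other targets were lower in HKO in the middle group as well, Hmgcs1 with a ratio of 0.816 (0.733 to 0.908), Idi1 with 0.745 (0.573 to 0.961) and Insig1 with 0.642 (0.573 to 0.717). The median log2 ratio of the 6 targets, HKO over WT, was 0.24 in the periportal, -0.36 in the middle and 0.11 in the pericentral group. Idi1 had ratios of 0.496 (0.414 to 0.593) in WT and 0.479 (0.386 to 0.593) in HKO, with 11.6 and 13.5 CPM in the periportal group and 23.4 and 28.3 CPM in the pericentral group.

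Sqle had 1.26 CPM (0.771 to 1.95) in the periportal group, from 20 UMIs, and 3.46 CPM (2.62 to 4.48) in the pericentral group of WT, a ratio of 0.365 (0.208 to 0.617). In HKO it had 4.20 and 7.104 CPM and a ratio of 0.591 (0.390 to 0.892). Sqle was higher in HKO in each group, by 3.33-fold (1.93 to 5.95), 1.49-fold (0.988 to 2.21) and 2.05-fold (1.40 to 3.02) from portal to central, and the middle interval included 1. Cyp51 had the shallowest slope of the enzymes, with ratios of 0.648 (0.549 to 0.765) in WT and 0.668 (0.553 to 0.807) in HKO.

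Insig1 and Srebf2 did not share the slope of the enzymes. Insig1 had 86.1, 100.2 and 109.7 CPM from portal to central in WT, a ratio of 0.785 (0.731 to 0.843), and 76.0, 64.3 and 70.03 CPM in HKO, with a ratio of 1.09 (0.973 to 1.21). Its HKO over WT ratio was 0.882 (0.808 to 0.963) in the periportal group and 0.638 (0.579 to 0.702) in the pericentral group, and the intervals did not overlap. Srebf2 was level across the zones, with 23.9, 24.8 and 25.4 CPM in WT and 20.0, 19.4 and 18.6 CPM in HKO, and ratios of 0.938 (0.814 to 1.08) and 1.07 (0.865 to 1.33). The gene for the transcription factor was thus flat where its target enzymes were graded.

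Mitochondrial RNA moved with the zones too. Its median share was 16.8%, 7.90% and 9.41% in the periportal, middle and pericentral groups of WT, and 14.8%, 5.68% and 8.00% in HKO, lowest in the middle group of both. In barcodes with at most 20% mitochondrial UMIs the median log2 ratio of the targets in WT was -0.96. Median depth from portal to central was 21011, 17067 and 22456 UMIs in WT and 7756, 3082 and 4094 UMIs in HKO, the middle group being the shallowest in both. The ranking rested on a median of 239 landmark UMIs per barcode in WT and 50 in HKO.

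**Figure D3:**
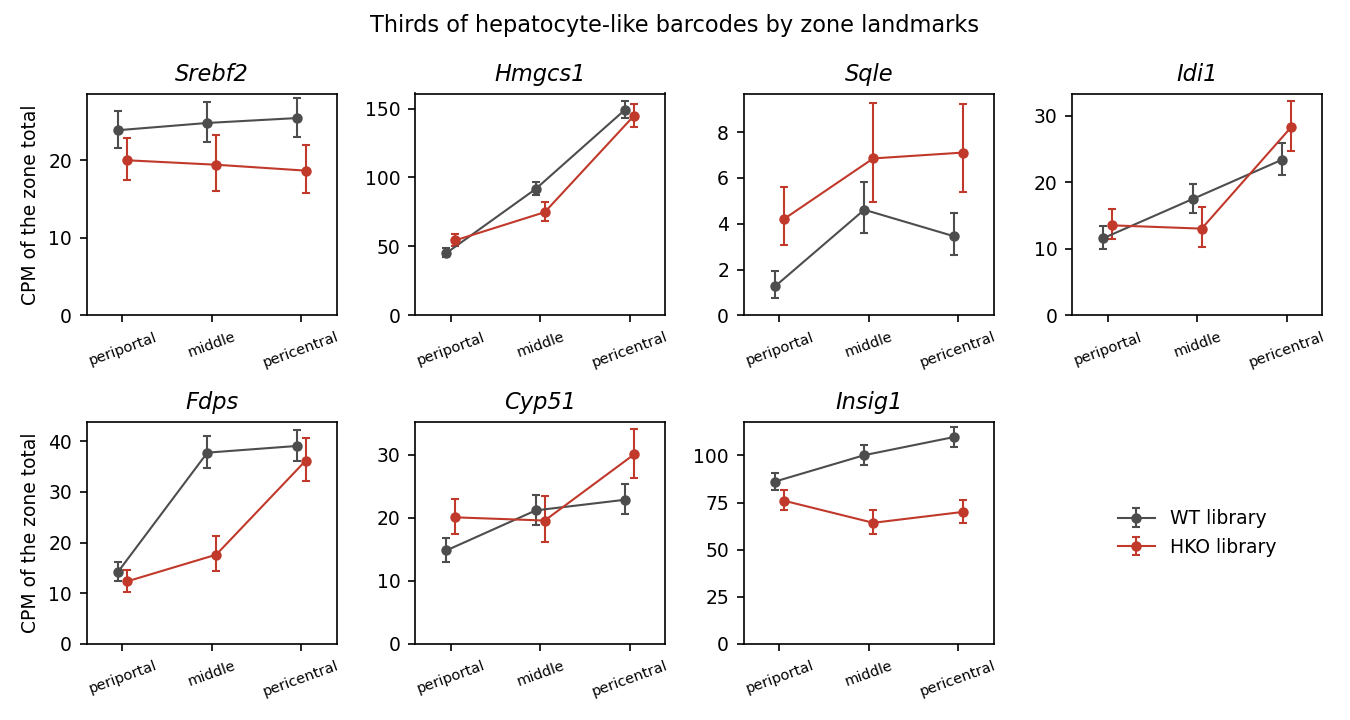
CPM of each member in the periportal, middle and pericentral groups of hepatocyte-like barcodes, 1 line per library, with exact 95% Poisson intervals and axes that start at 0. Hmgcs1 goes from 45.2 to 149 CPM in WT and from 54.4 to 145 CPM in HKO, while Srebf2 stays between 18.6 and 25.4 CPM.

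Of the other genes of cholesterol synthesis, 11 passed the filter in WT and 12 in HKO. In the pericentral group 4 of 11 and 4 of 12 were at least 1.5-fold higher, against 12% and 10.4% of all genes. The median log2 ratios of this list were -0.42 and -0.50, and 1 gene in each library was higher on the portal side. Genes of SREBP processing had medians of -0.13 (8 genes) and -0.031 (7 genes), and genes of cholesterol uptake and traffic 0.13 and 0.19 (7 genes each). The 8 genes of fatty acid synthesis had medians of -0.37 in WT and -0.79 in HKO. At least 1.5-fold higher in the pericentral group were 3 and 5 of them, against the same 12% and 10.4%. In the periportal group 2 and 1 were, against 9.28% and 4.03% of all genes. A pericentral median was therefore not particular to cholesterol synthesis.

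A pair of clusters held at least 200 hepatocyte-like barcodes of each library, and the members, which were left out of clustering, differed between them. Hmgcs1 had 116 and 108 CPM (WT and HKO) in the first and 64.5 and 47.2 CPM in the second. Idi1 had 27.4 and 22.6 CPM against 7.97 and 6.36 CPM. Srebf2 went the other way, with 20.7 and 19.3 CPM against 33.6 and 26.2 CPM. The second cluster was led by long noncoding RNAs, among them Neat1, a nuclear RNA. Within the clusters the HKO over WT ratio of Sqle was 1.67 and 1.76, that of Insig1 0.837 and 0.679, and that of Srebf2 0.931 (0.798 to 1.09) and 0.781 (0.640 to 0.948), so that Srebf2 did not differ beyond counting error in the first. Idi1 had ratios of 0.827 (0.720 to 0.950) and 0.798 (0.524 to 1.19) there, the second with an interval that included 1. The comparison at like depth gave ratios above 1, although the interval at 5000 to 10000 UMIs, 0.855 to 2.03, also included 1.

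Outside hepatocytes, Srebf2 lay above the level that hepatocyte RNA would supply in each of the 3 larger named classes. The amount of hepatocyte RNA in a class was set from Alb, the albumin transcript, as if all of it had come from hepatocytes. That gave 48.9% of UMIs in WT and 23.0% in HKO for macrophage-like barcodes, 46.4% and 38.4% for endothelial-like, and 41.0% and 29.0% for T and NK-like barcodes. These classes held 155 and 319, 115 and 235, and 110 and 425 barcodes.

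In T and NK-like barcodes Srebf2 had 31 UMIs in WT and 43 in HKO, against 7.46 and 6.71 UMIs from scaled hepatocyte RNA. Its levels were 42.0 CPM (28.6 to 59.7) and 36.1 CPM (26.1 to 48.7), above those of hepatocyte-like barcodes in both libraries. In macrophage-like barcodes it had 33.4 CPM (23.1 to 46.7) and 28.7 CPM (21.4 to 37.8), from 34 and 51 UMIs, and its interval overlapped that of hepatocyte-like barcodes in WT only. In endothelial-like barcodes it had 30.03 CPM (18.6 to 45.9) and 16.8 CPM (8.68 to 29.3), from 21 and 12 UMIs, and did not differ from hepatocyte-like barcodes beyond counting error. The HKO over WT ratios in the 3 classes, 0.859 (0.529 to 1.41), 0.861 (0.547 to 1.37) and 0.559 (0.251 to 1.19), all had intervals that included 1. Monocyte and dendritic-like barcodes had 25 Srebf2 UMIs in WT and 33 in HKO. They numbered 38 in WT and 108 in HKO, and a class under 50 barcodes in a library is given by counts only.

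Most genes lay above what hepatocyte RNA would supply in these classes, and the targets are read against that share. Of the 7073 genes analysed in hepatocyte-like barcodes, the interval lay above the scaled level in WT and HKO for 73.1% and 84% in macrophage-like barcodes, 73.6% and 76.2% in T and NK-like barcodes, and 74.4% and 73.7% in endothelial-like barcodes. Srebf2 was therefore with the majority of genes in each class. Of the 5 targets among these genes, 4 in WT and 5 in HKO lay above in macrophage-like barcodes, a share near that of all genes. The count was 3 and 2 of 5 in T and NK-like barcodes and 1 of 5 in each library in endothelial-like barcodes. These counts depend on the hepatocyte-like profile as the baseline. Hmgcs1 had 152 CPM in free RNA of WT against 96.2 CPM in that profile, which would give it a higher scaled level. A baseline from free RNA was not computed. Insig1 in macrophage-like barcodes had 83 UMIs in WT against 49.2 scaled and 86 in HKO against 29.1, or 81.5 CPM (64.9 to 101) and 48.5 CPM (38.8 to 59.9). In T and NK-like barcodes of HKO, by contrast, Insig1 had 17 UMIs against 24.6 scaled. Cyp51 had 21 UMIs there against 7.99 scaled. Sqle had no UMI in endothelial-like barcodes of either library, which allows up to 4.29 CPM in WT and 4.20 CPM in HKO at 3 UMIs of the class total, and up to 5.27 and 5.16 CPM by the exact 95% interval. The median log2 of CPM over hepatocyte-like barcodes was below 0 in each of the 3 classes, from -0.17 in macrophage-like barcodes of WT to -1.20 in endothelial-like barcodes of HKO, with values under 3 UMIs set to 3.

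Some targets had lower values in HKO than in WT outside hepatocytes, where the share of hepatocyte RNA was also smaller in HKO. Not all did, and Cyp51 in T and NK-like barcodes had a ratio of 1.45 (0.635 to 3.59). Hmgcs1 in macrophage-like barcodes had a ratio of 0.340 (0.236 to 0.487) and Insig1 in T and NK-like barcodes 0.285 (0.1503 to 0.518). With Alb-scaled hepatocyte RNA subtracted, this Hmgcs1 level was 73.3 CPM of the remaining UMIs in WT and 10.9 CPM in HKO. The Insig1 level became 16.4 CPM in WT and 0 CPM in HKO, where its UMIs lay under the scaled level. Why the levels differ was not tested.

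**Figure D4:**
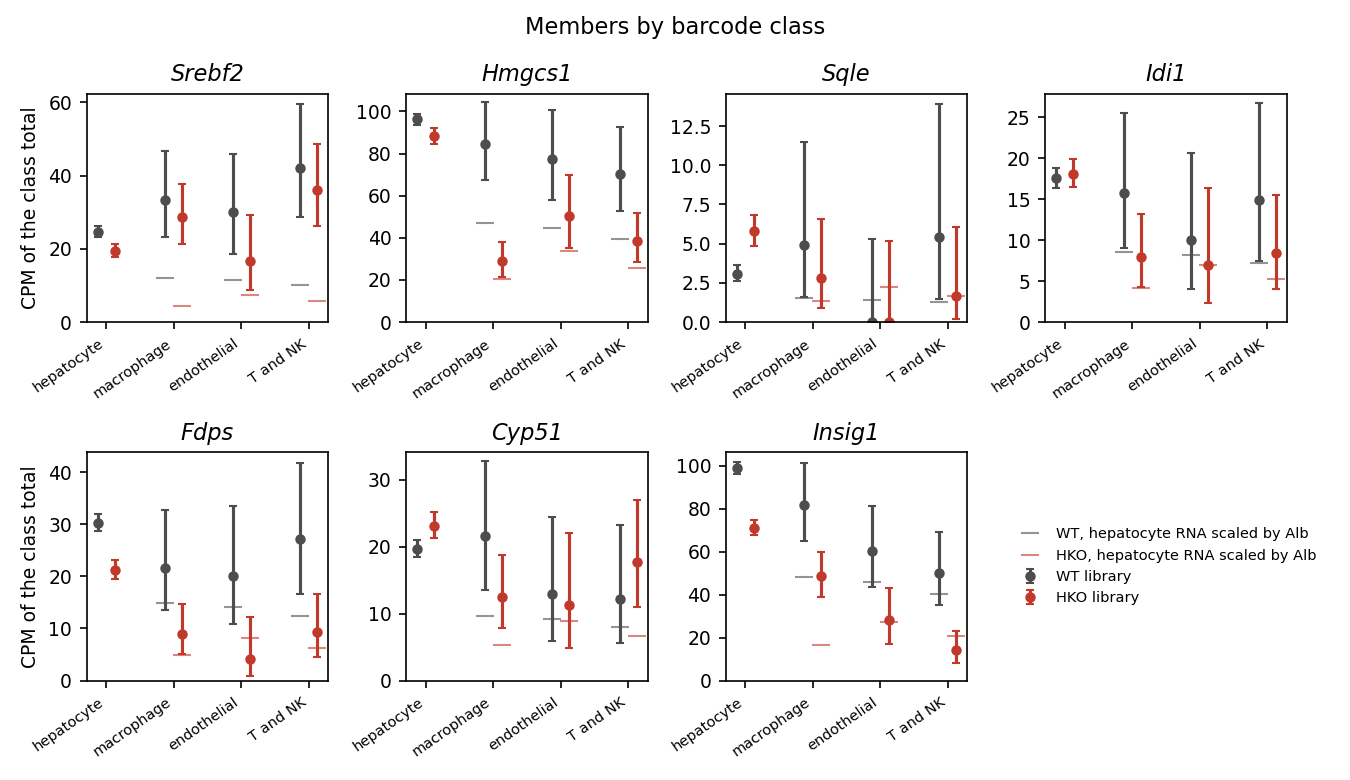
CPM of each member in 4 barcode classes, 1 point per library, with exact 95% Poisson intervals. Short lines give the CPM that hepatocyte RNA scaled by Alb would supply. Srebf2 lies above these lines in the 3 other classes, at 42.0 and 36.1 CPM in T and NK-like barcodes.

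The synthesis genes varied together from barcode to barcode, weakly. Over hepatocyte-like barcodes thinned to 5000 UMIs, 1835 in WT and 1574 in HKO, the log level of each gene was correlated with the summed counts of the 6 targets, with a member set against the sum of the other 5. These correlations are across barcodes of 1 library, which share depth and free RNA, and are a description. Ranked by the mean of both libraries among 2625 genes, Idi1 would stand at rank 5 (r = 0.084 in WT and 0.23 in HKO), Hmgcs1 at 6, and Sqle, Fdps and Cyp51 at 10. Insig1 would stand at 56 and Srebf2 at 1388, with r of 0.027 and 0.0027. Among the nonmembers with high means were Cyp3a11, Gulo and Cyp2e1, of which Gulo and Cyp2e1 are pericentral landmarks.

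At 5000 UMIs a barcode held a mean of 1.29 UMIs of the 6 targets in WT and 1.10 in HKO, with a median of 1 in both. The spread was wider in HKO, with a variance over mean of 2.36 against 1.59 in WT and a highest barcode of 20 against 14 UMIs. By gene, Idi1 had a variance over mean of 1.08 in WT and 1.49 in HKO and Hmgcs1 1.33 and 1.73, whereas Insig1 had 1.28 and 1.14. Counting alone gives 1, and a low mean also brings the value near 1. Srebf2 had values of 1.05 and 1.09 at means of only 0.127 and 0.093 UMIs in WT and HKO. Insig1 had means of 0.508 and 0.360 UMIs, so the 2 genes cannot be ranked by this measure.

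The wider pathway was followed through lists chosen by function, in hepatocyte-like barcodes. Of 16 other enzymes of cholesterol synthesis 10 had a mean of at least 10 CPM, 5 lower and 5 higher in HKO. Their median log2 ratio was -0.025. None was past 1.5-fold, against 4.35% of all genes analysed that were lower and 2.35% that were higher by that fold. The highest were Fdft1, the squalene synthase that supplies Sqle, with 22.1 and 32.7 CPM in WT and HKO (1.48, 1.35 to 1.62), and Msmo1, a sterol C4-methyl oxidase acting after Cyp51, with 27.4 and 38.1 CPM (1.39, 1.28 to 1.52). The lowest were Ebp, the sterol isomerase, with 140 and 93.3 CPM (0.668, 0.637 to 0.7002), and Dhcr7, which makes cholesterol from its immediate precursor, with 15.1 and 11.5 CPM (0.763, 0.662 to 0.876). As among the members, enzymes of 1 pathway lay on both sides of 1.

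Of 10 genes of SREBP processing and sterol sensing 9 were listed and 8 passed the filter. Among these, 7 were lower in HKO, with a median of -0.26 beside -0.021 over all genes analysed. At least 1.5-fold lower were 2 of the 8, against 4.35% of all genes analysed. Srebf1, which encodes the SREBP of fatty acid synthesis, had the lowest ratio of all genes analysed, 0.207 (0.192 to 0.223), from 155 CPM in the WT library and 32.0 CPM in the HKO library. Insig2, the paralogue of Insig1, had 625 and 386 CPM (0.618, 0.604 to 0.633). The highest was Ubxn8 at 1.07 (0.948 to 1.21).

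Of 8 genes of cholesterol uptake and traffic 7 passed the filter, 4 lower and 3 higher, with a median of -0.063. At least 1.5-fold lower was 1 of the 7, against 4.35% of all genes analysed. The lowest were Scarb1, the receptor for high-density lipoprotein, with 98.9 and 59.6 CPM (0.603, 0.568 to 0.640), and Soat2, which esterifies cholesterol, with 24.4 and 18.4 CPM (0.754, 0.675 to 0.841). The highest were Stard4, a sterol carrier, at 1.20 (1.09 to 1.31), and Npc2, a lysosomal sterol carrier, at 1.11 (1.03 to 1.19). For comparison, 7 of 8 genes of fatty acid synthesis past the filter were lower in HKO, and the median was -0.60. By at least 1.5-fold 4 were lower and 1 higher, against 4.35% and 2.35% of all genes analysed. The exception was Scd1, the stearoyl-CoA desaturase, which went from 3486 CPM in the WT library to 5491 CPM in the HKO library, 1.58-fold higher (1.56 to 1.59).

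**Figure D5:**
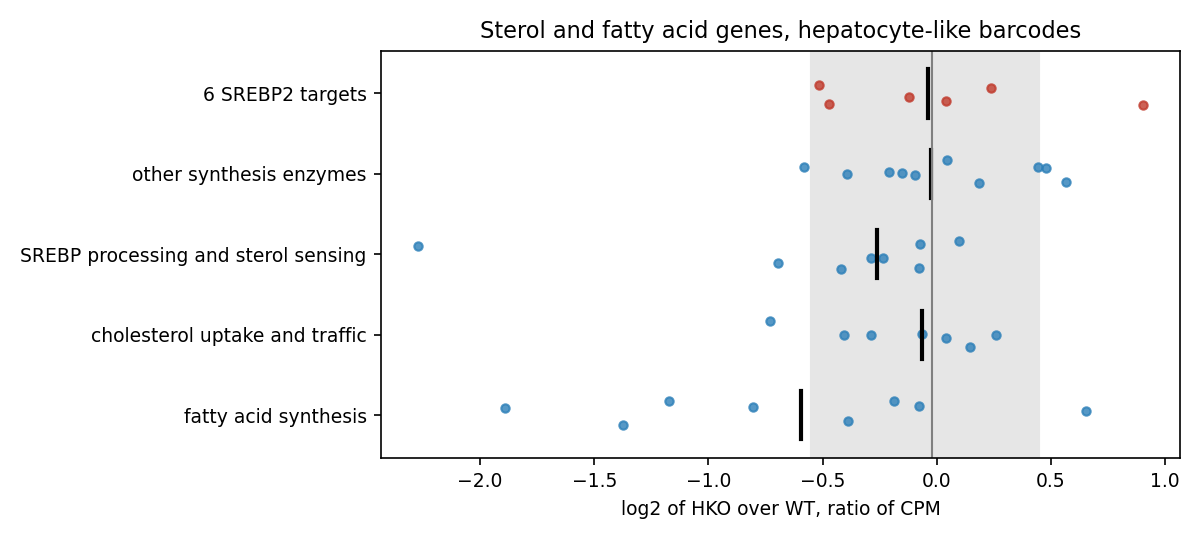
Log2 ratio of CPM in HKO over WT in hepatocyte-like barcodes, 1 point per gene, with a bar at the median of each list, for the 6 targets and the genes of 4 lists past the filter. The grey band spans the 5th to 95th percentile of all genes analysed, -0.55 to 0.45, and the line their median. The medians of the targets and of the other synthesis enzymes lie near that line, and that of fatty acid synthesis at -0.60.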

How the data were processed

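Both libraries were made with 10x Genomics 3′ chemistry. The deposited values were UMI counts per gene and barcode, whole numbers that the authors made with Cell Ranger 7.1.0 (header of the matrix) on mm10 (submitters' processing notes). This version counts intronic UMIs by default, and the options used were not given in the sources used here. Columns of no sample numbered 0. Whether the libraries shared cell barcodes was not analysed here.

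Barcodes with at least 500 UMIs, 300 genes and at most 50% mitochondrial UMIs were kept. Scrublet (scanpy 1.11.5) marked 0 doublets at its automatic threshold, so the top-scoring 0.8% per 1000 barcodes were left out (7019 WT, 2664 HKO). Clustering used 2000 variable genes without the members, 30 principal components, 15 neighbours and Leiden at resolution 1.0, on both libraries without integration. Classes needed 3 markers from 13 lists. Clusters without other markers were hepatocyte-like from 5140 UMIs in WT and 1702 in HKO, 2 times the commonest depth, and otherwise of free RNA depth. In HKO that depth, 851, lay near the lowest in the table, 770.

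UMIs were summed per class and library. CPM had exact Poisson intervals, and ratios exact intervals conditional on the summed count (scipy 1.17.1). Code was tested on simulated data. The members and the lists were chosen with earlier results of these data known. All members were named, and of each list the 2 highest and 2 lowest ratios past the filter, with some values not reported here. Fatty acid synthesis was given by counts and medians, and Scd1 was named from it after its values were seen.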

Additional observations from a re-analysis of the deposited data

How the results depend on the processing

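With 1 library per genotype, 3 pooled livers each, every value rests on 1 pair of libraries, and differences between animals, pools and preparations cannot be told apart from genotype. The pooled livers share a library, so intervals cover counting error only. No paired analysis was possible because there was 1 library per genotype and no test was made. Depth limits Sqle most, with 146 and 143 UMIs in hepatocyte-like barcodes, and every member outside hepatocytes.

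The median log2 ratio of the 6 targets in hepatocyte-like barcodes, HKO over WT, was close to 0 and had no stable sign. It was -0.040 as reported, 0.022 with at least 5000 UMIs in both libraries, 0.39 at 10000 to 20000 UMIs, 0.32 at 20000 or more, 0.0075 with the free RNA profile subtracted, -0.28 with no depth minimum, and -0.39 within the cluster led by long noncoding RNAs, an alternative chosen after seeing the data. By gene the sign turned for Hmgcs1 (0.33 at 10000 to 20000 UMIs, 0.26 at 20000 or more) and Fdps (0.21 at 10000 to 20000). Idi1, at 0.043, fell below 0 in 4 of 17 alternatives, to -0.13 with no depth minimum, -0.097 thinned to 1000 UMIs, and -0.27 and -0.33 within the 2 shared clusters. Srebf2, Insig1, Sqle and Cyp51 kept their sign in all 17 alternatives, with log2 ratios from -0.39 to -0.10, -0.56 to -0.26, 0.74 to 2.00 and 0.043 to 0.61. Intervals of the ratio came to include 1 for Srebf2 when thinned (0.582 to 1.26), at 5000 to 10000 UMIs and in the larger shared cluster (0.798 to 1.09), for Insig1 when thinned (0.674 to 1.04), and for Cyp51 when thinned, at 5000 to 10000 UMIs and with no depth minimum (0.949 to 1.12). The cause of these moves was not tested.

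The median log2 zone ratio of the targets kept its sign in all 7 alternatives. In WT it moved from -1.23 to -0.70 with 2 groups of barcodes in place of 3, -0.63 with barcodes thinned to 1000 UMIs, -0.95 with barcodes weighted equally and -0.96 with at most 20% mitochondrial UMIs. In HKO it moved from -0.91 to -0.42 when thinned and -0.46 with equal weights. Thinned, Cyp51 in WT turned to 0.15 and Sqle in HKO to 0.51, with intervals of the ratio that included 1 (0.405 to 3.09 and 0.490 to 4.42). Thinned, the interval also included 1 for Sqle, Idi1 and Insig1 in WT and for Fdps and Cyp51 in HKO. In HKO it did so for Sqle with 2 groups (0.543 to 1.08) and with equal weights (0.528 to 1.30), and for Cyp51 with equal weights (0.687 to 1.02). By class, subtracting Alb-scaled hepatocyte RNA lowered each median, from -1.20 to -2.15 in T and NK-like barcodes of HKO and from -0.60 to -1.21 in endothelial-like barcodes of WT, the largest moves among the 3 larger classes.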
